A study of Ovis aries with 15 samples.

Results

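The genes described here make and release glucose in the kidney of sheep fed aflatoxin B1 (AFB1), a toxin of Aspergillus moulds, with or without curcumin (CUR), a polyphenol of turmeric. They are PC, PCK1, PCK2, FBP1, G6PC1, SLC37A4 and SLC2A2, which were chosen for their known roles in gluconeogenesis, and all 7 were found by symbol among the 25592 genes of the deposited table. The animals were male crosses of Dorper and Small-tailed Han sheep aged 4 months, housed with 2 animals in a pen and fed for 21 days. CON sheep received the basal ration, and AFB1 sheep the same ration with AFB1 at 500 µg/kg of dry matter. AFB1_CUR sheep received that dose of AFB1 together with CUR at 800 mg/kg of dry matter. RNA-seq of kidney gave 5 libraries in each group, 15 in all, each from a different sheep according to the methods of the study. The labels do not say which sheep shared a pen.

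Gluconeogenesis builds glucose from lactate, amino acids, glycerol and, in ruminants above all, propionate. The liver and the proximal tubule of the kidney are the tissues that carry it out. PC carboxylates pyruvate to oxaloacetate in the mitochondrion, and the phosphoenolpyruvate carboxykinases PCK1 (cytosolic) and PCK2 (mitochondrial) turn oxaloacetate into phosphoenolpyruvate. FBP1 removes a phosphate from fructose 1,6-bisphosphate. SLC37A4 then carries glucose 6-phosphate into the endoplasmic reticulum, where G6PC1 hydrolyses it to glucose, and SLC2A2 (GLUT2) is the facilitative carrier through which glucose leaves hepatocytes and tubule cells.

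The library labelled AFB1 replicate 1 stood apart before any comparison. Its summed FPKM (fragments per kilobase of transcript, scaled to the depth of the library) was 54785 for the hepatocyte markers, against 88.1 to 444 in the other 14 libraries. Its sum for 8 proximal tubule markers was 36.6, against 1446 to 3701. ALB, the gene of serum albumin, stood at 25681 FPKM there and at 0 to 23.9 in the others, whereas UMOD, a gene of the thick ascending limb, stood at 0.108 against 126 to 1734. This library is called liver-like below and is shown apart, and the other 14 are called kidney libraries. Total counts were 50255295 to 68747047 per library. Among the kidney libraries, the summed FPKM of 6 leukocyte markers was 102 in AFB1 replicate 2 and 192 in AFB1_CUR replicate 2, and 9.85 to 39.1 in the others. In bulk tissue, fewer cells of a type and less RNA per cell cannot be told apart.

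PCK1 was the most abundant of these genes in kidney. On the FPKM scale, which is per length, its median over the 14 kidney libraries was 1046, which placed it at rank 23 of the 13162 genes with enough signal to be tested. FBP1 followed with a median of 315 FPKM (rank 137), G6PC1 with 245 (rank 181) and PCK2 with 156 (rank 293). SLC37A4 had 92.7 (rank 507), PC 29.6 (rank 1734) and SLC2A2 19.0 (rank 2780). PCK1 exceeded FBP1, PCK2 exceeded SLC37A4 and SLC37A4 exceeded PC in 14 of 14 kidney libraries. FBP1 exceeded G6PC1, G6PC1 exceeded PCK2 and PC exceeded SLC2A2 in 13 of 14 each. The first enzyme of the route and the last carrier were thus the lowest of the 7 in level. The cytosolic isozyme PCK1 exceeded the mitochondrial PCK2 by 3.85-fold to 11.8-fold (median 7.41), and G6PC1 exceeded its partner SLC37A4 by 1.68-fold to 3.31-fold (median 2.31).

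The start of the route was measured through PC (sheep chromosome 21, 41272774 to 41373944, minus strand, as the deposited table places it). PC was at 29.3, 25.7, 17.0, 54.9 and 63.5 FPKM in CON replicates 1 to 5. It was at 21.8, 25.1, 20.2 and 37.6 FPKM in AFB1 replicates 2 to 5, and at 43.2, 18.2, 30.1, 34.8 and 29.9 FPKM in AFB1_CUR replicates 1 to 5. The groups overlapped, and CON replicates 4 and 5 lay above the AFB1 kidney libraries. The means were 38.1 ± 20.03 FPKM in CON (SD, n = 5), 26.2 ± 7.89 in AFB1 (SD, n = 4) and 31.3 ± 9.07 in AFB1_CUR (SD, n = 5).

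PCK1 (chromosome 13, 58272493 to 58278624, minus strand) was at 925, 965, 645, 1578 and 906 FPKM in CON. In the AFB1 kidney libraries it was at 569, 1348, 1076 and 1913 FPKM, and in AFB1_CUR at 1470, 677, 1482, 1072 and 1019 FPKM. The AFB1 values enclosed those of both other groups, with the lowest in replicate 2 and the highest in replicate 5. PCK2 (chromosome 7, 20852807 to 20861068, minus strand) was at 144, 87.4, 88.8, 270 and 235 FPKM in CON. It was at 50.8, 132, 91.2 and 205 FPKM in the AFB1 kidney libraries and at 202, 89.5, 168, 168 and 167 FPKM in AFB1_CUR. AFB1 replicate 2 was again the lowest kidney library, and all 5 AFB1_CUR libraries lay between the extremes of CON.

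FBP1 (chromosome 2, 31790061 to 31821236, plus strand) was at 336, 248, 268, 483 and 505 FPKM in CON. It was at 201, 419, 357 and 613 FPKM in the AFB1 kidney libraries, and at 492, 160, 231, 293 and 279 FPKM in AFB1_CUR. In AFB1_CUR, replicate 1 was high and the other 4 were all below 3 of the 4 AFB1 kidney libraries.

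G6PC1 (chromosome 11, 42712006 to 42724028, plus strand) was at 172, 239, 252, 238 and 251 FPKM in CON. The AFB1 kidney libraries had 127, 252, 175 and 358 FPKM, and the AFB1_CUR libraries 305, 127, 267, 263 and 186 FPKM. The highest CON library exceeded the lowest by 1.46-fold, the narrowest range of the 7 genes in CON, against 2.81-fold over the 4 AFB1 kidney libraries. The group means were nearly equal, at 230 ± 33.2 FPKM in CON (SD, n = 5), 228 ± 100.4 in AFB1 (SD, n = 4) and 230 ± 71.7 in AFB1_CUR (SD, n = 5). SLC37A4 (chromosome 15, 29324281 to 29329496, minus strand) was at 102, 72.4, 81.7, 126 and 105 FPKM in CON. It was at 38.7, 91.2, 65.6 and 204 FPKM in the AFB1 kidney libraries and at 137, 57.4, 94.1, 128 and 87.7 FPKM in AFB1_CUR. Its lowest and its highest kidney value were both in AFB1, 5.27-fold apart.

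SLC2A2 (chromosome 1, 217136597 to 217174272, plus strand) was at 12.6, 22.3, 28.7, 22.5 and 21.03 FPKM in CON. The AFB1 kidney libraries had 11.8, 18.5, 10.7 and 23.7 FPKM, and the AFB1_CUR libraries 32.1, 11.6, 19.5, 17.3 and 6.52 FPKM. Both extremes of the 14 libraries were in AFB1_CUR, in replicates 1 and 5.

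**Figure D1:**
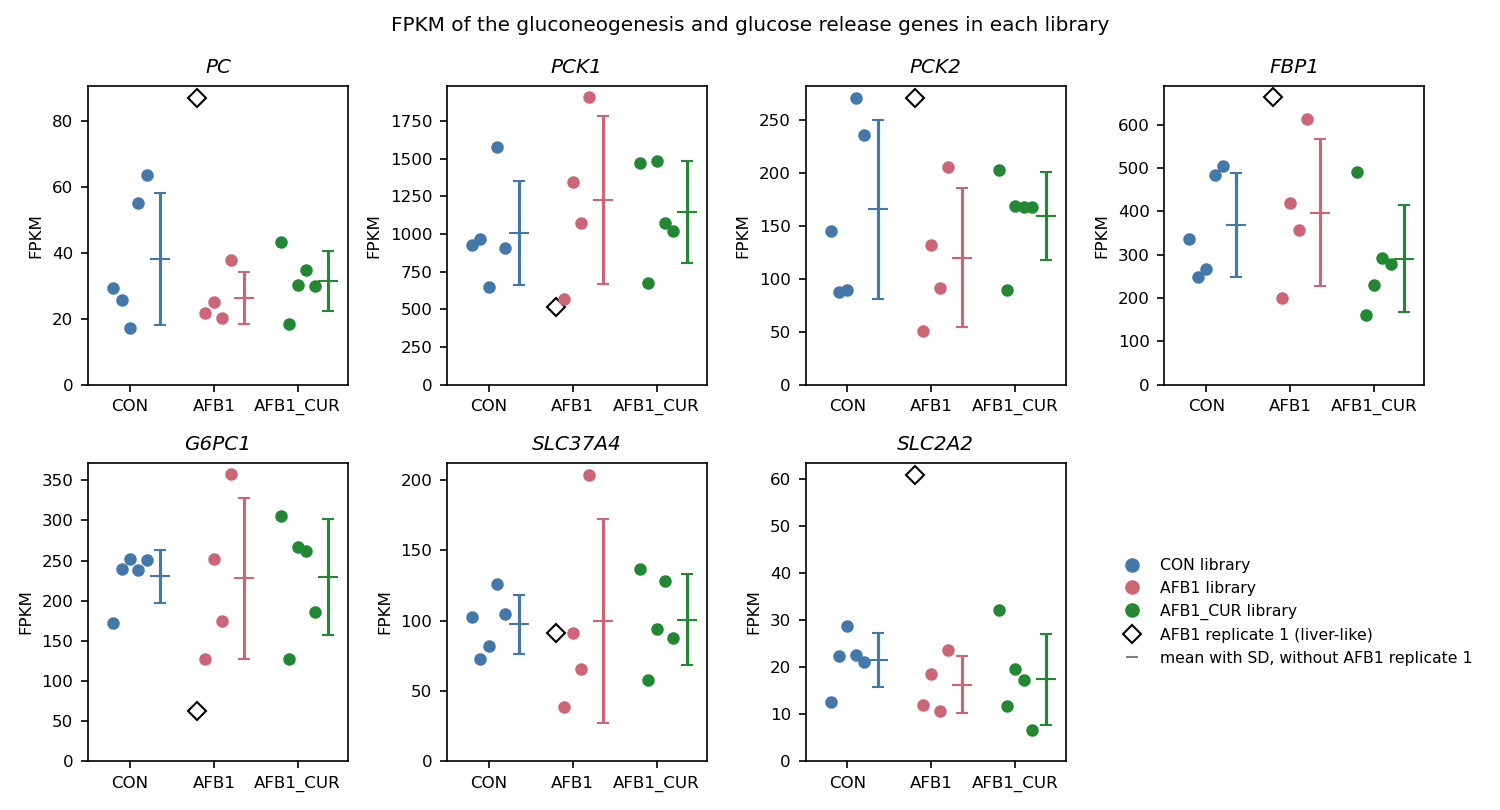
FPKM (vertical axis, linear, from 0) of each gene in each library by group, with filled points for kidney libraries, an open diamond for the liver-like AFB1 replicate 1, and bars for the mean and SD without it. The 3 groups overlap for every gene, and the open diamond lies above the kidney points for PC, FBP1 and SLC2A2, just above the highest for PCK2 (271 against 270 FPKM), and below them for PCK1 and G6PC1.

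None of these 7 genes passed the screening thresholds of the study between any groups of the 14 kidney libraries. In the quasi-likelihood test of edgeR, a gene was called where the groups differed by more than 1.5-fold with an unadjusted p under 0.05. This gave 0 of 7 between AFB1 and CON, where 1.76% of all 13162 tested genes were called. It gave 0 of 7 between AFB1_CUR and AFB1, against 0.935% of all, and 0 of 7 between AFB1_CUR and CON, against 1.63% of all. After Benjamini-Hochberg adjustment, edgeR called 0% of all genes in each comparison, where 664, 303 and 723 genes had an unadjusted p under 0.05. DESeq2 called 17, 3 and 1 after adjustment. The libraries of the compared groups overlapped for each of the 7 genes, while they did not overlap for 1.8%, 0.585% and 0.828% of all genes in the same order.

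Between AFB1 and CON, the largest estimate was for PC, at a log2 fold change of -0.53 (SE 0.39, edgeR adjusted p = 0.965), or 0.690 of the CON level with an interval (95%) from 0.385 to 1.24. PCK2 stood at -0.45 (SE 0.45) and SLC2A2 at -0.38 (SE 0.41). PCK1 stood at 0.31 (SE 0.38), with an interval from 0.704-fold to 2.19-fold. FBP1 (0.13), SLC37A4 (0.08) and G6PC1 (0.01) were closest to no difference. The median over the 7 was 0.01, and over all tested genes 0.02. Leaving out AFB1 replicate 5 moved PCK1 to -0.05 and SLC37A4 to -0.63, and leaving out AFB1 replicate 2 moved them to 0.57 and 0.36.

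Between AFB1_CUR and AFB1, which shares the AFB1 libraries with the comparison above, FBP1 had the largest estimate. Its log2 fold change was -0.52 (SE 0.39, edgeR unadjusted p = 0.200, adjusted p = 0.99999), or 0.696 of the AFB1 level with an interval from 0.390 to 1.24. FBP1 passed the screening thresholds in 4 other fits of this comparison, always lower in AFB1_CUR, and its adjusted p was 0.774 or higher in each. With the liver-like library included it stood at -0.94 (unadjusted p = 0.0495), where 4.05% of all genes were called. With the proximal tubule score as a covariate, a fit added after the data were seen, it stood at -0.74 (unadjusted p = 0.00468), where 1.28% of all genes were called. It stood at -0.63 with the replicate number as a block (unadjusted p = 0.0342), where 1.14% of all genes were called, and at -0.83 without AFB1_CUR replicate 1 (unadjusted p = 0.0466), where 1.01% were called. The other 6 genes ranged from -0.18 (PCK1, SE 0.38) to 0.32 (PCK2, SE 0.45).

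Between AFB1_CUR and CON, the estimates ran from -0.39 for FBP1 (SE 0.37) and -0.34 for both PC (SE 0.37) and SLC2A2 (SE 0.39) to 0.13 for PCK1 (SE 0.36). Only PCK1 was estimated higher in AFB1_CUR. SLC37A4 (-0.01) changed sign in some fits. In all 3 comparisons the interval of each gene included equal levels and also reached past a 1.5-fold difference in at least 1 direction, so neither equal levels nor a difference of that size was shown by these libraries.

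With the liver-like library counted in AFB1, 5% of all genes were called between AFB1 and CON, 4.05% between AFB1_CUR and AFB1 and 1.01% between AFB1_CUR and CON, and 0, 1 and 0 of the 7 genes. PC then stood at 0.38 and SLC2A2 at 0.64 in AFB1 against CON, both opposite in sign to the kidney libraries alone, as were PCK2 (0.17) and G6PC1 (-0.14).

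**Figure D2:**
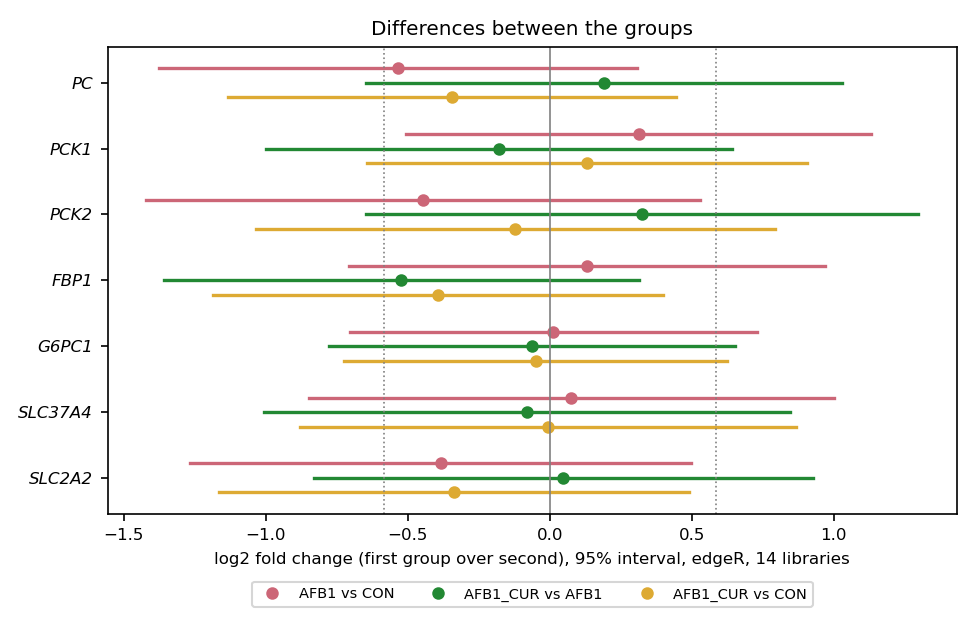
Log2 fold change (horizontal axis) of each gene in the 3 comparisons, from edgeR on the 14 kidney libraries, where points are estimates, lines are 95% intervals and dotted lines mark a 1.5-fold difference. Each of the 21 intervals crosses 0, with the lowest estimates for PC in AFB1 against CON (-0.53) and FBP1 in AFB1_CUR against AFB1 (-0.52).

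The genes varied widely between sheep of the same group, and they varied together. Over the 14 kidney libraries, the highest exceeded the lowest by 2.81-fold for G6PC1 and by up to 5.32-fold for PCK2. Among the AFB1 kidney libraries, replicate 5 had the highest FPKM of all 7 genes, and replicate 2 the lowest of PCK1, PCK2, FBP1, G6PC1 and SLC37A4. In AFB1_CUR, replicate 2 had the lowest FPKM of 6 genes, all but SLC2A2, and replicate 1 the highest of 6, all but PCK1. On log2(CPM + 1), where CPM is the count scaled to library size after TMM normalization (trimmed mean of M values), all 21 pairs correlated positively, with Pearson's r from 0.418 (PCK2 with SLC2A2) to 0.885 (PCK2 with SLC37A4). By a two-sided permutation test with Benjamini-Hochberg adjustment over the 21 pairs, 17 passed an adjusted p of 0.05. The share of passing pairs among all tested genes was not computed, so this count does not show a trait particular to these genes. The glucose 6-phosphate carrier SLC37A4 and the phosphatase G6PC1 had r = 0.879 (Spearman's rho = 0.820), and 0.768 without the 2 libraries farthest from the median of SLC37A4. PCK2 with SLC37A4 had r = 0.885 (rho = 0.899, and 0.865 without the 2 farthest libraries), and PCK2 with PC r = 0.885 (rho = 0.947 and 0.855). The isozymes PCK1 and PCK2 had r = 0.792 (rho = 0.749), and 0.629 without AFB1 replicate 2 and AFB1_CUR replicate 2. The 4 pairs that did not pass all contained SLC2A2, with PCK1 (0.460), PCK2 (0.418), FBP1 (0.549) and PC (0.443). SLC2A2 correlated most with G6PC1 (r = 0.783, rho = 0.811, and 0.827 without the 2 farthest libraries).

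The 2 libraries with the highest leukocyte markers were also the lowest for several of the genes. Without them, 9 of the 21 pairs passed the adjustment in place of 17. PCK1 with G6PC1 then had r = 0.587 (adjusted p = 0.0802 by the permutation test) and PCK1 with PC 0.497 (adjusted p = 0.149). With the group means removed, permuting within groups, the same 17 pairs passed the adjustment as over all 14 kidney libraries.

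**Figure D3:**
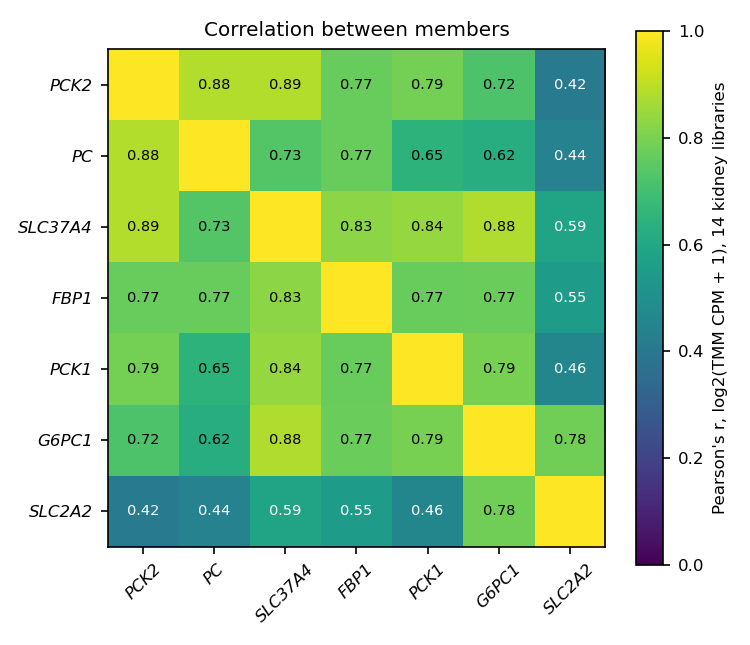
Pearson's r between the genes over the 14 kidney libraries, on log2(TMM CPM + 1), with the value printed in each cell and colour from 0 to 1. The 3 highest values join PCK2 with SLC37A4 (0.89), PCK2 with PC (0.88) and SLC37A4 with G6PC1 (0.88), and the row of SLC2A2 is the lowest except with G6PC1 (0.78).

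The levels also followed markers of the proximal tubule, the segment that makes glucose. The score was the mean log2(TMM CPM + 1) of LRP2, CUBN, SLC34A1, SLC5A12, AQP1, SLC22A8, MIOX and SLC13A3, and it ran from 8.44 in AFB1_CUR replicate 2 to 10.3 in AFB1 replicate 5. By the permutation test of Pearson's r, 6 of the 7 genes had a positive correlation at an unadjusted p under 0.05, against 16.8% of the 13154 tested genes outside the score. With Benjamini-Hochberg adjustment over all of these genes, 5 of the 7 passed, against 10.3% of all. PC followed the score most closely (r = 0.912, rho = 0.903, adjusted p = 0.00164, from the smallest p that the 100000 permutations can give), and 0.365% of all genes had an r as high. PCK2 (r = 0.854, rho = 0.886), SLC37A4 (r = 0.826, rho = 0.886), FBP1 (r = 0.763, rho = 0.697) and G6PC1 (r = 0.691, rho = 0.666) came next, each with an adjusted p over all genes of 0.0336 or lower by the permutation test of r. PCK1, the most abundant of the 7, had r = 0.593 (permutation p = 0.0266, adjusted p over all genes 0.0920) and rho = 0.530 (permutation p = 0.0558), and 13.8% of all genes had an r as high. For SLC2A2, r was 0.481 (permutation p = 0.0820, adjusted p over all genes 0.200) and rho 0.578 (permutation p = 0.0335).

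Without AFB1 replicate 5 and AFB1_CUR replicate 2, the 2 libraries farthest from the median score, r was 0.912 for PC, 0.830 for PCK2, 0.728 for SLC37A4 and 0.603 for FBP1. It fell to 0.471 for G6PC1, 0.345 for PCK1 and 0.327 for SLC2A2. Leaving out the extremes of the score also narrows its range, which can lower r by itself. Without the 2 libraries high in leukocyte markers, r was 0.420 for PCK1 (permutation p = 0.173) and 0.560 for G6PC1 (permutation p = 0.0587). With the group means removed, r was 0.905 for PC, 0.858 for FBP1, 0.854 for PCK2 and 0.673 for PCK1.

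**Figure D4:**
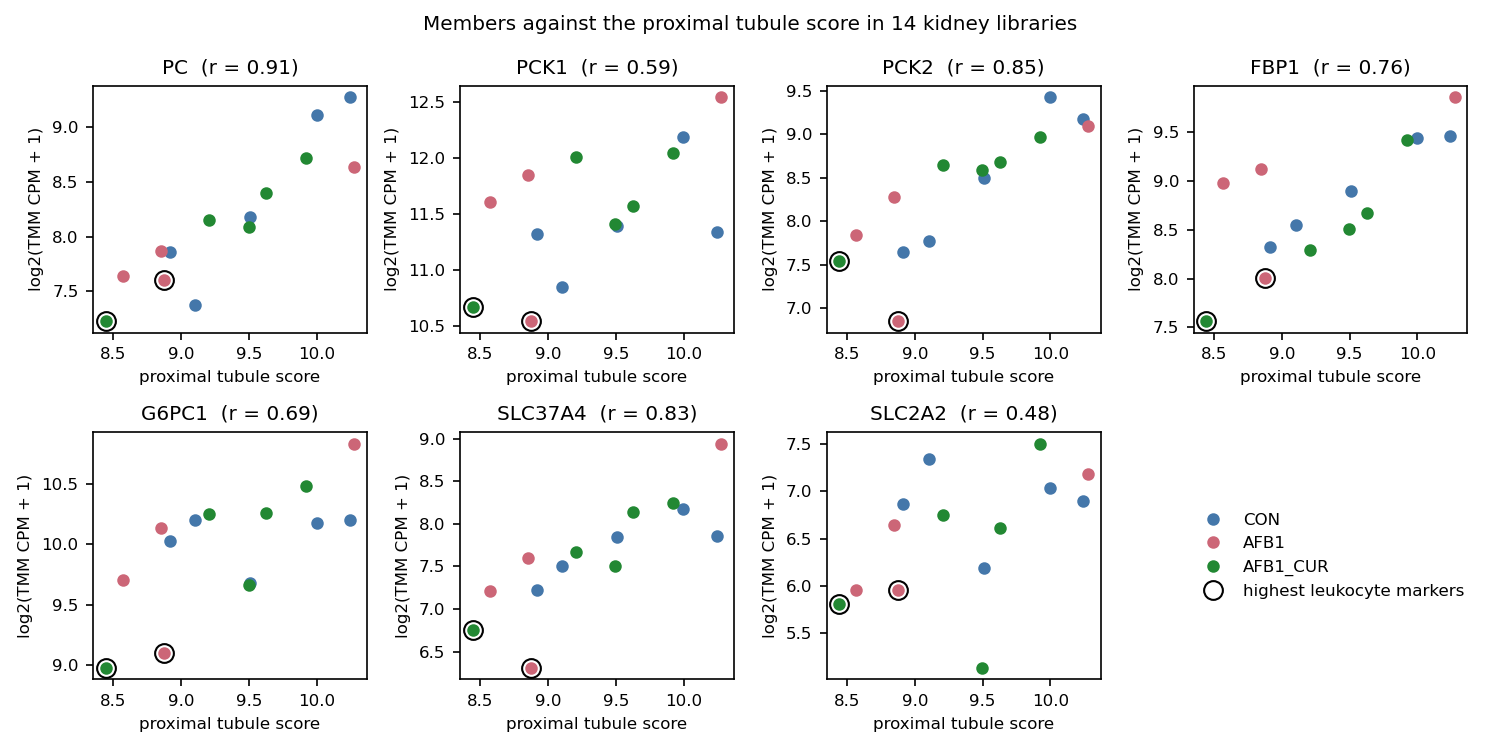
Level of each gene (vertical axis, log2(TMM CPM + 1)) against the proximal tubule score (horizontal axis, same units) in the 14 kidney libraries, coloured by group, with circles around the 2 libraries highest in leukocyte markers. PC rises most evenly with the score (r = 0.91), while SLC2A2 is scattered (r = 0.48) and the circled libraries lie at or near the bottom for PCK1, PCK2, FBP1, G6PC1 and SLC37A4.

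The genes whose levels were most like each of the 7 over the 14 kidney libraries, out of 13162, were as follows, by Pearson's r. PC was most like ALDH9A1 (0.971), ACAA2 (0.960) and SFMBT1 (0.953). PCK2 was most like AGXT2 (0.938), DMGDH (0.937) and GALNT11 (0.926), of which AGXT2 and DMGDH are mitochondrial enzymes of amino acid metabolism. G6PC1 was most like LOC106990866 (0.950), SH3D19 (0.949) and PPARA (0.940), the last a nuclear receptor of fatty acid oxidation. FBP1 was most like INPP5J (0.946), MSRA (0.941) and LOC101105553 (0.937). SLC37A4 was most like LOC101117749 (0.940), CLCN5 (0.937), an endosomal chloride exchanger of the proximal tubule, and SLC13A3 (0.937), which is also a marker in the score. PCK1 was most like LOC114117623 (0.932), BLVRA (0.902) and ASB13 (0.895), and SLC2A2 most like LOC121819726 (0.891), SLC16A6 (0.885) and MAF (0.883).

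The rest of the pathway was followed through 10 lists with 104 genes, of which 95 were tested. They cover the carbon sources, the exchange of oxaloacetate, the reversible steps shared with glycolysis, the opposing steps, glycogen and the regulators. Between AFB1 and CON, 2 of the 95 (2.11%) were called, both higher in AFB1. Between AFB1_CUR and AFB1, 3 (3.16%) were called, all lower in AFB1_CUR, and between AFB1_CUR and CON, 1 (1.05%), which was higher. Of all genes, 1.76%, 0.935% and 1.63% were called in the same comparisons, and no called gene passed the adjustment. The median log2 fold change over the 95 was 0.01, -0.05 and -0.09.

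NR0B2 (SHP), a nuclear receptor that lacks a DNA-binding domain and represses other receptors, was the regulator called in AFB1. It was low in kidney, at 1.19, 1.499, 1.10, 1.19 and 0.579 FPKM in CON and at 1.73, 2.37, 2.42 and 1.83 FPKM in the AFB1 kidney libraries. In AFB1_CUR it was at 1.43, 0.549, 0.891, 1.83 and 0.730 FPKM. The AFB1 libraries all lay above CON, and AFB1_CUR replicate 4 lay among them. The log2 fold change was 0.91 (SE 0.36, edgeR adjusted p = 0.957) in AFB1 against CON and -0.97 (SE 0.36, adjusted p = 0.99999) in AFB1_CUR against AFB1, and both use the same AFB1 libraries. The call against CON was lost when CON replicate 5, AFB1 replicate 3 or AFB1 replicate 4 was left out (0.75 to 0.87).

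SLC38A3, a glutamine transporter of tubule cells and hepatocytes, was at 6.42, 9.80, 6.23 and 22.1 FPKM in the AFB1 kidney libraries and at 6.78, 6.04, 4.91, 5.05 and 4.46 FPKM in AFB1_CUR. It was lower in AFB1_CUR by a log2 fold change of -1.14 (SE 0.35, edgeR adjusted p = 0.99999), which was -0.48 and not called without AFB1 replicate 5. PGAM2, the muscle form of phosphoglycerate mutase, was lower in AFB1_CUR than in AFB1 (-0.75, SE 0.28, adjusted p = 0.99999) at 0.938 ± 0.307 FPKM (SD, n = 5) against 1.48 ± 0.404 (SD, n = 4), and was not called without AFB1 replicate 5 (-0.51). GPD2, the mitochondrial glycerol 3-phosphate dehydrogenase, was higher in AFB1 than in CON (0.65, SE 0.24, adjusted p = 0.957). Its FPKM was 2.39 in AFB1 replicate 2 and 0.931 to 1.04 in the other 3 AFB1 kidney libraries, and without replicate 2 its log2 fold change was 0.27 and not called. With the replicate number as a block its log2 fold change was 0.55 (unadjusted p = 0.0109), under 1.5-fold and so not called. PFKFB3, which makes the fructose 2,6-bisphosphate that inhibits FBP1, was higher in AFB1_CUR than in CON (0.69, SE 0.24, adjusted p = 0.823). It stood at 7.13 FPKM in AFB1_CUR replicate 2 and 2.43 to 3.45 in the other 4, against 1.99 to 2.63 in CON, and was not called without that replicate (0.41). AFB1 replicate 2 and AFB1_CUR replicate 2, on which GPD2 and PFKFB3 rested, were the libraries with the highest leukocyte markers (102 and 192 FPKM), whose part in these values was not tested.

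The most abundant genes of the lists that are named here did not pass the thresholds in any comparison of the kidney libraries. LDHB, which interconverts lactate and pyruvate, had a median of 541 FPKM over the 14 libraries, ALDOA 302 and the mitochondrial pyruvate carrier subunit MPC1 146. SLC5A2 (SGLT2), which reabsorbs glucose from the tubular fluid, had 335. The malate dehydrogenases MDH2 and MDH1 had 270 and 263, the succinyl-CoA ligase subunits SUCLG1 and SUCLG2 at the end of propionate entry 266 and 109, and GLUD1 and OGDH of glutamine entry 135 and 139. Of the opposing steps, the pyruvate kinases PKM and PKLR had 79.4 and 55.6 FPKM. HNF4A, a nuclear receptor that activates gluconeogenic genes, had 55.5, and PTH1R, the parathyroid hormone receptor, 67.8. GPD1 and SORD, of glycerol and fructose entry, had 115 and 160, and the glycogen genes PYGL and PGM1 18.1 and 17.7. G6PC3, the widely expressed glucose phosphatase, had 15.4. The largest of their differences between AFB1 and CON was for HNF4A, at -0.50 (SE 0.29, edgeR unadjusted p = 0.107).

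The liver-like library held the same 7 genes in different proportions. It is a single library, so its values carry no test. A gene was counted as above or below kidney where it lay outside the range of the 14 kidney libraries and over 1.5-fold from their median on the TMM CPM scale. By that rule 23.2% of 13809 genes were above and 27.5% below. Of the 7 genes, 4 were above and 1 below. SLC2A2 was at 517 TMM CPM against 33.1 to 176 in kidney, or 5.20-fold the kidney median, and PC at 1281 against 144 to 596, or 4.77-fold. FBP1 was at 1405 against 181 to 904 (3.28-fold) and PCK2 at 1007 against 110 to 664 (2.80-fold). G6PC1 was below, at 446 against 486 to 1777, or 0.404 of the kidney median. PCK1 (0.803 of the median) and SLC37A4 (1.61-fold) lay inside the kidney range.

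These directions depend in part on the scale, because TMM scaling moved the median of all genes in this library to -0.02 (log2) and FPKM left it at -0.70. On the FPKM scale SLC2A2 (3.19-fold), PC (2.94-fold) and FBP1 (2.11-fold) stayed above, and G6PC1 (0.255) below. PCK2 was at 271 FPKM against a kidney maximum of 270, and was inside the range on CPM without TMM. PCK1 was below the kidney range on FPKM, at 517 against 569 to 1913. FPKM ratios between genes of a library do not depend on how that library is scaled, but they do depend on gene length. PCK1 exceeded PCK2 by 1.91-fold in the liver-like library and by 3.85-fold or more in each kidney library. G6PC1 stood at 0.685 of SLC37A4 there and at 1.68-fold or more in kidney. PCK1 to PC was 5.95 against 14.3 to 53.7, and G6PC1 to SLC2A2 was 1.03 against 8.76 to 28.5. By FPKM, FBP1 was the most abundant of the 7 in the liver-like library, at 665 (rank 74), ahead of PCK1 (rank 100). G6PC1 exceeded only SLC2A2 there by FPKM, at rank 816. On TMM CPM, which is not per length, PCK1 (2250) exceeded FBP1 (1405) in that library. G6PC1 (446) then exceeded SLC37A4 (307) but not SLC2A2 (517).

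**Figure D5:**
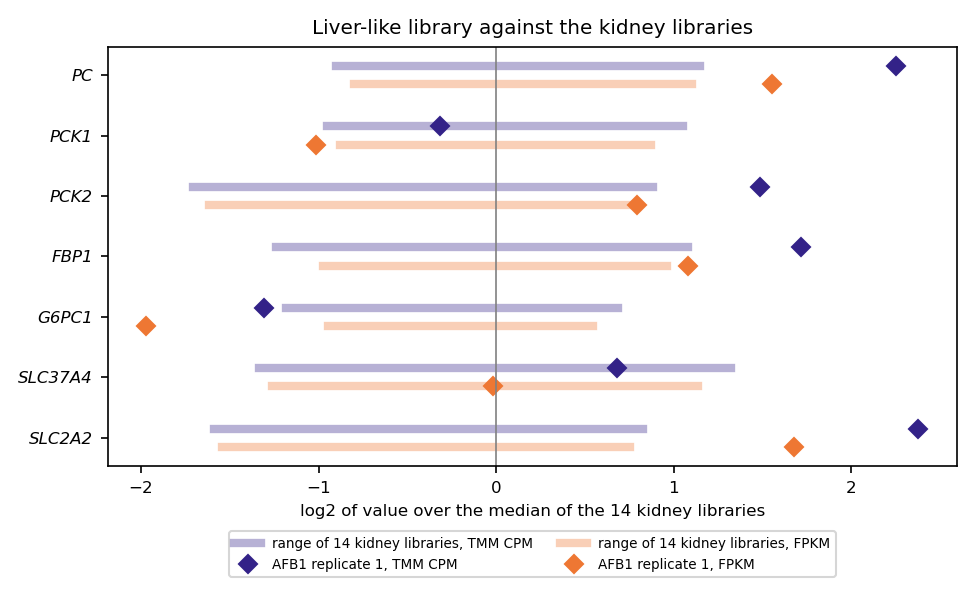
Liver-like library (diamonds) against the range of the 14 kidney libraries (bars), as log2 of the value over the kidney median, on TMM CPM and on FPKM. SLC2A2, PC and FBP1 lie right of the bars on both scales, and G6PC1 lies left of them on both. PCK2 lies right of its bar on TMM CPM and only just past its end on FPKM (271 against 270). PCK1 lies inside its bar on TMM CPM and left of it on FPKM.

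The surrounding lists are given on TMM CPM in the liver-like library, beside the 23.2% of all genes above kidney and 27.5% below, and differences between lists were not tested. Of the glycogen list, 8 of 10 genes were above kidney and 1 below, with PYGL, the liver form of glycogen phosphorylase, at 793 against 44.1 to 81.1 TMM CPM. Of propionate entry, 4 of 7 were above (PCCA, MCEE, MMUT and SUCLG2) and 1 below. Of glycerol and fructose entry, 4 of 7 were above, GPD1 at 2.51-fold and SORD at 3.02-fold among them, and GPD2 was below. The opposing steps had 4 above and 5 below of 11, with PKM at 0.179 of the kidney median. Of glutamine entry, GLUD1 (3.76-fold) and SLC38A3 (7.84-fold) were above and OGDH was below. Of the genes for lactate, alanine and pyruvate, 3 of 10 were above and 1 below, of oxaloacetate exchange 3 of 8 were above and 1 below, and of the reversible steps shared with glycolysis 2 of 10 were above and 3 below. Of the related phosphatases and glucose transporters, 0 of 9 were above and 2 below. Of the 20 regulators, 7 were above and 2 below, with NR0B2 at 65.1 against 0.589 to 3.08 TMM CPM. SLC5A2 was at 0.167 TMM CPM against 324 to 1126 in the kidney libraries.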

How the data were processed

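Kidney RNA was sequenced in 15 sheep, 5 in each group (oligo(dT) selection and a library protocol that marks the second strand with U, per the labels). The authors deposited read counts and FPKM values per gene. The submitters' processing notes name cutadapt 1.9, HISAT2 2.2.1 and StringTie 2.1.6, and also DESeq2 and edgeR. For the counting tool, and for the genome build, the sources used here give no name. Of 24947 symbols matched to the RefSeq table of ARS-UI_Ramb_v3.0, 99.6% had the same coordinates, all 7 genes among them.

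Groups came from the sample titles. Genes that reached an FPKM of 1 in 5 or more of the 14 kidney libraries were tested on the deposited counts with edgeR 4.0.16 in R 4.3.3 (TMM, quasi-likelihood, 3 groups in a joint model). A call needed a change above 1.5-fold with an unadjusted p under 0.05. Benjamini-Hochberg adjustment ran over all tested genes. Alternatives used DESeq2 1.42.0, limma 3.58.1 on log2(FPKM + 1) with a pseudocount of 1, no filter, all 15 libraries, only the 2 groups compared, a replicate block and omission of each library. Correlations used 100000 permutations (numpy 2.4.6), adjusted over the 21 pairs and, for the tubule score, over all tested genes outside it. The plan had adjusted the latter over the 7 genes, which the alternatives keep. The edgeR and correlation steps were tested on simulated data. Totals of 50255295 to 68747047 counts limit counting error, so that the spread between sheep sets the precision. No libraries were near duplicates.

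Text names all 7 genes, each pathway gene called in a comparison, the 2 genes per list with the highest median FPKM in kidney, and the 3 genes most correlated with each of the 7. The genes, lists and marker lists, and the separation of AFB1 replicate 1, were chosen with earlier results of these data known. The listed genes G6PC2, SLC22A6, HP and CYP21A2 are not analysed here. Some genes of the lists are not reported here.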

Additional observations from a re-analysis of the deposited data

Results flagged for a closer look

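Of 52 groups of values examined (the 7 genes and the 6 marker lists in each group, AFB1 also without replicate 1), 10 had a library far from the rest by Dixon's criterion, which flags about 1 in 20 groups by chance. Of the 7 genes, G6PC1 was at 172 FPKM in CON replicate 1, against 238 to 252 in the other CON libraries. PC was at 87.0 FPKM in AFB1 replicate 1, against 20.2 to 37.6 in the other AFB1 libraries, and SLC2A2 at 60.8 FPKM in the same library, against 10.7 to 23.7. The summed FPKM of the hepatocyte markers was 54785 in AFB1 replicate 1, against 173 to 398 in the other AFB1 libraries.

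The summed FPKM of the leukocyte markers was 102 in AFB1 replicate 2, which stood apart both with AFB1 replicate 1 among the others (18.7 to 34.4) and without it (18.7 to 32.4). It was 192 in AFB1_CUR replicate 2, against 25.7 to 39.1 in the other AFB1_CUR libraries. The adrenal cortex markers summed to 5.60 FPKM in AFB1 replicate 2, against 0.753 to 1.99, and to 12.1 FPKM in AFB1_CUR replicate 2, against 2.14 to 3.32. The loop and collecting duct markers summed to 2771 FPKM in AFB1_CUR replicate 5, against 813 to 1350, and SLC2A2 had its lowest kidney value, 6.52 FPKM, in that library.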

How the results depend on the processing

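Across 483 estimates of the 7 genes' fold changes in 23 other fits, 4 passed the screening thresholds, all FBP1 lower in AFB1_CUR than in AFB1, and 57 reversed in sign against the 14-library fit. The causes were not tested, except where fewer libraries or other genes entered by construction. No estimate that reversed had passed the thresholds.

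With all 15 libraries, 659 genes were called between AFB1 and CON, 534 between AFB1_CUR and AFB1 (1 of the 7 genes) and 133 between AFB1_CUR and CON, in place of 232, 123 and 214. The reversed log2 fold changes were 0.17 (PCK2), -0.14 (G6PC1), 0.38 (PC) and 0.64 (SLC2A2) in AFB1 against CON, -0.28 (PCK2), 0.11 (G6PC1), -0.72 (PC) and -0.96 (SLC2A2) in AFB1_CUR against AFB1, and 0.0067 (SLC37A4) in AFB1_CUR against CON. The calls of GPD2 (0.45), PGAM2 (-0.49) and PFKFB3 (0.70) were lost. SLC37A4 was also reversed in AFB1_CUR against CON with DESeq2 (0.00053) and with its size factors in edgeR (0.00054). After adjustment, DESeq2 called 17, 3 and 1 genes, and edgeR on only the compared groups 1 between AFB1 and CON, where the joint fit called 0. Without the filter, 867, 707 and 928 genes were called. Limma on log2(FPKM + 1) called 105, 81 and 80, with reversed values of -0.11 (G6PC1) and -0.20 (SLC37A4) in AFB1 against CON, 0.049 (G6PC1), 0.21 (SLC37A4) and -0.0024 (SLC2A2) in AFB1_CUR against AFB1, and 0.052 (PCK2) and 0.011 (SLC37A4) in AFB1_CUR against CON. On that scale the calls of GPD2 (0.31), NR0B2 against CON (0.56), PGAM2 (-0.36) and PFKFB3 (0.52) were lost.

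Same-numbered libraries correlated from -0.307 to 0.595 in their deviations from the group means. For replicate 2, r was 0.408 between AFB1 and CON, 0.595 between AFB1_CUR and AFB1 and 0.438 between AFB1_CUR and CON. The labels give no pairing of the sheep, and these values do not settle whether the replicate numbers carry one. With the replicate number as a block, 1 of the 7 genes was called between AFB1_CUR and AFB1 (FBP1, -0.63), beside 1.14% of all genes. The call of GPD2 between AFB1 and CON was lost (0.55). G6PC1 (-0.078) and SLC37A4 (-0.050) were reversed in AFB1 against CON, and SLC2A2 (-0.12) in AFB1_CUR against AFB1.

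Further fits were chosen after the data were seen. Without the 2 libraries high in leukocyte markers, 220 genes were called between AFB1_CUR and AFB1 and 127 between AFB1_CUR and CON, with PCK2 (0.057), G6PC1 (0.13) and SLC37A4 (0.17) reversed in the latter, and 9 of 21 pairs of genes passed the adjustment. The calls of GPD2 (0.27) and PFKFB3 (0.42) were lost, and the permutation p of PCK1 and of G6PC1 with the tubule score rose above 0.05. With the proximal tubule score as a covariate, 1 of the 7 genes was called between AFB1_CUR and AFB1, beside 1.28% of all genes, and PC (-0.022) and SLC2A2 (-0.045) were reversed there. PCK2 was then reversed in AFB1 against CON (0.0068) and in AFB1_CUR against CON (0.18), as was SLC37A4 (0.13) in the latter, where the call of PFKFB3 (0.56) was lost.

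Leaving out each library in turn gave 206 to 458 called genes for AFB1 and CON, 119 to 271 for AFB1_CUR and AFB1 (0 to 1 of the 7) and 123 to 312 for AFB1_CUR and CON. The highest counts came without AFB1 replicate 5, AFB1 replicate 2 and AFB1_CUR replicate 1. Log2 fold changes that crossed 0 ranged, in AFB1 against CON, from -0.23 to 0.37 (FBP1), -0.36 to 0.23 (G6PC1), -0.053 to 0.57 (PCK1) and -0.63 to 0.36 (SLC37A4). In AFB1_CUR against AFB1 they ranged from -0.27 to 0.31 (G6PC1), -0.43 to 0.19 (PCK1), -0.33 to 0.36 (SLC2A2) and -0.36 to 0.62 (SLC37A4). In AFB1_CUR against CON they ranged from -0.20 to 0.12 (G6PC1), -0.29 to 0.15 (PCK2) and -0.16 to 0.16 (SLC37A4). Between 14 and 20 of the 21 pairs of genes, and 5 to 7 of the 7 genes with the tubule score, passed the adjustment within their family of tests.

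For the liver-like library, 2 of the 7 genes were below kidney on FPKM and 2 on CPM without TMM, in place of 1. On these scales 51.5% and 51.7% of all genes were below and 11.8% above on each. Pooled with the kidney libraries, of which it is no member by its markers, it left 1 gene correlated with the tubule score, with r of -0.29 (PCK2), -0.38 (FBP1), -0.47 (PC), -0.032 (SLC37A4) and -0.58 (SLC2A2).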
